A study of Homo sapiens with 12 samples.

Results

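A172 is an established human glioblastoma line, described by the depositors as adherent brain glioma cells, wild type for the experiment. The libraries used here are the 4 scrambled-control libraries of a 12-library RNA-seq series (3 groups of 4, the other 2 groups transfected with siRNA-1 or siRNA-2 against uc.110, a transcribed ultraconserved region). Cells in 6-well plates received 3 µL of a 20 µM scrambled siRNA with 9 µL of a lipid transfection reagent for 6 hours, in serum-containing culture, and total RNA went to sequencing on day 2 after transfection. The labels do not say whether the 4 libraries came from separate cultures, so the spread among them may be technical. Members were all gene intervals of the merged count table other than ribosomal RNA: 48720 of 48769 gene rows, of which 44403 passed checks of name and position and 18259 of those were protein-coding. All values describe transfected control cells, not untouched A172 cells, and no comparison with the other siRNA groups was made.

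Glioblastoma cells in culture are usually described along a few axes: how much of the glial and neural programme they keep, how far they have moved toward a mesenchymal state, and which growth factor receptors and cell cycle regulators drive them. Tumours are often sorted into proneural, classical and mesenchymal classes by such genes. Adherent serum-grown lines are known for strong matrix and adhesion programmes, and many have lost the CDKN2A locus, which encodes inhibitors of the kinases that start the cell cycle.

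Each library held 44013454 to 48842873 reads in gene intervals, and 45S ribosomal RNA stood at 2.1% to 5.08%. Levels are in CPM, reads of a gene relative to the total of its library, on the usual CPM scale with a TMM factor for composition, and an interval is called expressed when it had at least 1 CPM in all 4 libraries. By that rule 68.4% of protein-coding genes (12493 of 18259) and 40.6% of all intervals (18042 of 44403) were expressed. Protein-coding genes outside the lists described below gave 68.5%. Counts of the lists are to be read beside these shares, and none was tested. Values after ± are SDs over the 4 libraries (n = 4). Comparisons between genes use CPM per kb, of the whole interval unless the exon is named, because intervals include introns and long genes collect more reads.

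The way reads were assigned sets what these counts can show. The counts behave as if made over whole gene spans without regard to strand. Where 1 gene lay wholly inside another and held 40 reads or more, the outer gene never had the lower count, either among 2719 pairs transcribed the same way or among 3687 transcribed opposite ways. A gene that overlaps another can therefore share its reads, and the largest share of a gene's reads that overlapping genes could also hold is given, as "possibly shared", where it passes 20%. Reads also recurred in neighbours that do not overlap. Of 14267 pairs of adjacent intervals with at least 10 reads in every library, 42 had identical counts in all 4 libraries and 362 agreed within 10% in all 4. Calls of expression are upper limits for this reason, while sharing cannot make a count lower than it is. Of the 12493 expressed protein-coding genes, 6735 (53.9%) could share at most 20% of their reads and did not resemble a neighbour, and the number of such members is given beside each list's count as its unshared members. Genes of a cluster whose counts change step by step can pass this check, as in the metallothionein and keratin clusters described at the end. Unshared counts are therefore upper limits too.

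The 4 libraries were alike for most genes. Across protein-coding genes, Pearson's r of log2(CPM + 0.5) was 0.997 to 0.999 between pairs of libraries, a description across genes that are not independent. The median coefficient of variation (CV, the SD as a percentage of the mean) of expressed protein-coding genes was 4.94%, against 2.58% from counting alone. All 6 pairs of libraries differed by more than sampling noise, with a chi-square of 4.46 to 9.13 per gene, so no library was a copy of another. The median ratio of a library to the mean of the other 3, over expressed protein-coding genes, was 0.978 in replicate 1. In replicates 2 to 4 it was 1.00 to 1.01. Replicate 1 stood apart in 2 further ways. It had reads in 3207 intervals that were empty in the other 3 libraries, against 377 to 423 such intervals for each of the others, and 92 expressed protein-coding genes were at least 1.5-fold above the mean of the other 3 there, against 8 to 23 in the others. Its interferon genes are described at the end.

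The most abundant transcripts per length were those of the cytoskeleton, the matrix and housekeeping. Per kb of interval, ACTB, beta-actin, led the protein-coding genes with little overlap at 1431 CPM. The small heat shock protein HSPB1 followed at 601 CPM per kb and the actin-binding peptide gene TMSB4X at 542 CPM per kb. This order depends on the length used: per kb of exon, SPARC stood at 2102 CPM, ACTB at 1592, TMSB4X at 1077 and HSPB1 at 640. SPARC, a secreted calcium-binding matrix protein, had the largest read share of the genes described here, with 9861, 10435, 10297 and 10029 CPM in replicates 1 to 4, or 10155 ± 259 CPM. All 4 libraries lay close together for it. PKM, a pyruvate kinase gene whose forms these counts do not tell apart, reached 4316 ± 123 CPM, and FLNA, an actin crosslinker, 5571 ± 331 CPM. DKK1, a secreted inhibitor of Wnt signalling, was also among the 30 highest per kb of interval, at 680.0 ± 25.8 CPM. So were the galectin gene LGALS1 at 809.7 ± 14.2 CPM and S100A6 at 659.8 ± 52.6 CPM. By level, 46 protein-coding genes had at least 1000 CPM, 2138 had 100 to 1000, 7616 had 10 to 100, and 3256 were under 0.1 CPM.

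Several defining markers of mature astrocytes were at or near 0 in a line labelled as glioma. Of the astrocyte and radial glia genes, 13 of 26 were expressed (10 of them unshared), with a list median of 0.0417 CPM per kb, beside 0.296 over all protein-coding genes. At a threshold of 1 CPM per kb of exon the count of expressed members was 7. AQP4, the water channel of astrocyte endfeet, and GJB6, an astrocyte connexin, had 0 reads in all 4 libraries, and S100B had 1 read in all. The glutamate transporter genes SLC1A3 and SLC1A2 were at 0.0549 and 0.195 CPM, and the radial glia fatty acid carrier FABP7 at 0.0811 CPM. GFAP, the astrocyte intermediate filament gene, had 5.8, 6.78, 5.98 and 6.76 CPM in the 4 libraries. All of the GFAP reads could belong to the overlapping DNAAF19, so this value is an upper limit.

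Other genes of the same list were well expressed. SOX9, a transcription factor of glial fate, had 135, 145, 126 and 123 CPM, a mean of 132 ± 9.79 CPM, with no overlapping gene, and replicates 1 and 2 were the higher pair. GJA1, the main astrocyte connexin, was at 156 ± 3.36 CPM, the chaperone gene CLU at 615 ± 11.7 CPM (43.7% possibly shared), and GLUL, glutamine synthetase, at 122 ± 4.35 CPM. The nuclear factor NFIX was at 227 ± 8.09 CPM while its relative NFIA was at 1.03 ± 0.143 CPM. Per kb of exon, NFIX exceeded NFIA 380.1-fold.

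Oligodendrocyte genes were split in the same way: 9 of 19 were expressed (5 unshared). The highest were the progenitor proteoglycan CSPG4, also called NG2, at 320.0 ± 16.3 CPM, the matrix gene BCAN at 293 ± 13.1 CPM (100% possibly shared) and CNP, an enzyme of myelin-forming cells, at 253 ± 11.1 CPM (39.7% possibly shared). CNTN1, MYRF, GPR17 and PDGFRA were at 14.4 ± 0.469 CPM, 5.24 ± 0.705 CPM (100% possibly shared), 3.57 ± 0.237 CPM (100% possibly shared) and 3.42 ± 0.685 CPM. The lineage transcription factors OLIG2 and NKX2-2 were low but present, at 4.67 ± 0.289 CPM and 5.51 ± 0.151 CPM, and OLIG2 had 4.98, 4.69, 4.28 and 4.75 CPM by library. OLIG1, which lies near OLIG2, had 1 read in all 4 libraries. SOX10 was at 0.0905 CPM, and the myelin genes MBP, MAG and MOBP at 0.76, 0.0262 and 0.0601 CPM. Genes of this list were thus found both at high levels and near 0, as CNP and MBP show.

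Among neuron genes 12 of 25 were expressed (9 unshared), or 7 when 0.1 CPM per kb of interval was also required, and the highest were cytoskeletal or adhesive. NEFL, the light neurofilament subunit, had 386, 404, 427 and 421 CPM, with replicate 1 the lowest. Its partner subunits were nearly missing: NEFM was at 0.606 ± 0.069 CPM and NEFH at 0.0383 ± 0.0379 CPM. NEFL exceeded NEFM 684-fold per kb of exon, from 627 to 765-fold in single libraries, a contrast chosen after the values were seen. L1CAM, a neural adhesion molecule, was at 526 ± 17.8 CPM and the neuronal tubulin TUBB3 at 395 ± 7.69 CPM. Synaptic and neuronal identity genes ranged widely: the vesicle genes SYN1 and SYT1 were at 92.5 ± 4.01 CPM (100% possibly shared) and 29.9 ± 1.56 CPM (21.5% possibly shared), while SNAP25 was at 0.125 CPM, DCX at 0.129, ELAVL4 at 0.044 and the GABA transporter gene SLC32A1 at 0 reads.

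Of the neural and glioma stem cell genes, 19 of 29 were expressed (65.5%, 13 unshared), beside 68.4% of all protein-coding genes. NES, the nestin filament of neural progenitors, had 426, 478, 441 and 442 CPM, with replicate 2 the highest. SOX2, a stem cell transcription factor, was at 15.7 ± 1.5 CPM (100% possibly shared), and SOX11 was at 48.1 ± 2.3 CPM. MYC was at 22 ± 0.878 CPM. PROM1, which encodes the stem cell surface antigen CD133, was at 0.050 CPM, MYCN at 0.16 CPM, and the early neural transcription factor genes SOX1 and SOX3 had 0 reads in all libraries. NES was thus high while SOX1 and SOX3 gave no reads.

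Most mesenchymal and classical genes were expressed. Of the mesenchymal genes, 30 of 32 were expressed (19 unshared), against 13 of 15 of the classical (11 unshared) and 9 of 16 of the proneural genes (5 unshared), with medians of 1.7, 0.959 and 0.042 CPM per kb. These shares stand beside 68.4% of protein-coding genes and were not tested. The unshared counts, 11 of 15 classical and 19 of 32 mesenchymal genes, also fall where intervals overlap. They therefore do not rank the 2 classes. VIM, vimentin, had 2462, 2760.2, 2720.1 and 2689 CPM, lowest in replicate 1, with up to 44% possibly shared. CD44, a hyaluronan receptor, was at 702 ± 29.5 CPM and ANXA1 at 778 ± 25.3 CPM. The transcription regulators STAT3, WWTR1 and RUNX1 were at 280.4, 399.6 and 179 CPM. The tumour marker CHI3L1 was low at 3.66 ± 0.315 CPM, and PDPN, podoplanin, was at 0.0433 CPM. The plot of lineage lists shows the spread of each list over several orders of magnitude.

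**Figure D1:**
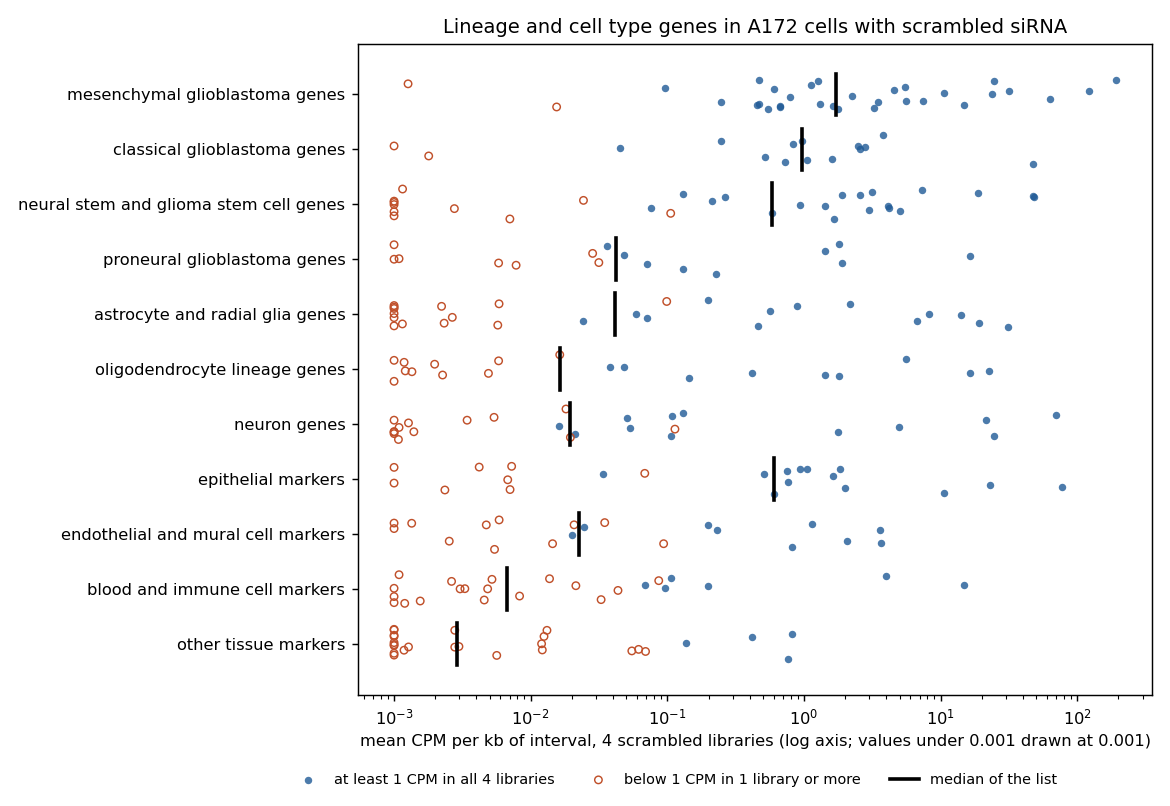
Each point is a gene of the named list, placed by its mean level over the 4 scrambled libraries in CPM per kb of interval on a log axis, with the list median as a black bar. The mesenchymal median (1.7) lies above that of the astrocyte (0.0417), oligodendrocyte (0.0163) and blood cell (0.00675) lists, and filled points reach at least 1 CPM in all 4 libraries.

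Markers of other tissues bear on what else the cultures could hold. Blood and immune markers were expressed for 6 of 24 (3 unshared), and their summed level was 293 to 328 CPM by library, most of it from CSF1R. The count was 3 when 0.1 CPM per kb of interval was also required and 3 at 1 CPM per kb of exon. The other expressed members were the lysosomal gene CD68 at 38.8 ± 3.02 CPM (46.5% possibly shared), the actin-bundling gene LCP1 at 12.6 ± 0.851 CPM, CD14 at 2.1 ± 0.565 CPM (100% possibly shared) and the leukocyte integrins ITGAM and ITGAX. ITGAM had 3.69, 4.58, 4.22 and 8.13 CPM and ITGAX had 2.24, 1.69, 1.88 and 6.25 CPM, both highest in replicate 4. MS4A1 and HBB had 0 reads, and TREM2, CD3E, CD4 and TMEM119 were at 0.0222, 0.0431, 0.0488 and 0.0218 CPM. Endothelial and mural markers were expressed for 9 of 20 (5 unshared), or 14 at 10 reads in all libraries. RGS5 was at 219 ± 20.2 CPM and PDGFRB at 151 ± 4.81 CPM, both pericyte genes, while CLDN5, KDR and CDH5 of endothelium were at 0.0328, 0.257 and 0.554 CPM. Epithelial markers were expressed for 13 of 21 (6 unshared), led by the keratins KRT8 at 608 ± 40.7 CPM (67.9% possibly shared) and KRT18 at 382 ± 25.6 CPM (100% possibly shared), whose intervals overlap each other, whereas CDH1, E-cadherin, was at 0.243 CPM and EPCAM at 1.41 ± 0.087 CPM. Markers of unrelated tissues were expressed for 4 of 26 (2 unshared), or 7 at 0.5 CPM and 8 at 10 reads in all libraries, with MYOD1, MYF5 and INS at 0 reads.

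Positional transcription factors of the trunk and limbs were among the genes expressed. HOX genes set position along the trunk and limbs and are low in normal forebrain. Of 39 HOX genes 29 were expressed (74.4%), not far above the 68.4% of all protein-coding genes. Their intervals overlap so much that 9 of the 29 are unshared, beside 6735 of the 12493 expressed protein-coding genes. HOXA10 had 74.8, 74.2, 81.1 and 75.4 CPM, and all of its reads could be shared with the read-through gene HOXA10-HOXA9. Without a comparable overlap, HOXB8 was at 65 ± 1.6 CPM, HOXD8 at 12.5 ± 0.574 CPM and HOXA13 at 9.42 ± 0.62 CPM. HOXB1 had 1 read in all libraries, HOXC12 was at 0.0266 CPM and HOXA7 at 0.0649 CPM. Other regional factors were expressed for 36 of 59 (61.0%, 28 unshared), below the share of all protein-coding genes. The anterior brain factor OTX2 had 1 read in all, while the mesenchyme factors FOXD1, PRRX1 and TWIST1 were at 37.3 ± 2.19 CPM, 70.1 ± 5.5 CPM and 30.6 ± 1.31 CPM and ZIC1 at 44.5 ± 2.16 CPM (29.5% possibly shared). EMX1, TBR1 and EOMES, of the developing cortex, were at 0.351, 0.0646 and 0.0588 CPM.

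Of the measured genes, 27 of 27 of the RTK, RAS and PI3K driver list were expressed (13 unshared), from PDGFRA at 3.42 CPM to FGFR1 at 223 CPM. NF1, the RAS inhibitor often mutated in mesenchymal tumours, was at 118 ± 1.8 CPM (66.4% possibly shared). NRAS was at 149 ± 6.42 CPM and PIK3CA at 54.7 ± 2.35 CPM (50.9% possibly shared).

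In the list of cell cycle checkpoint regulators 21 of 25 were expressed (12 unshared). CCND1, cyclin D1, had 796, 882, 829 and 812 CPM, with replicate 2 the highest. CCND2 was at 0.0654 CPM and CCND3 at 103 ± 3.07 CPM (22.4% possibly shared). CDK6, a partner kinase of the D cyclins, was at 294 ± 20.05 CPM and CDK4 at 178 ± 6.03 CPM (67% possibly shared). CDKN1A, which encodes the cyclin-dependent kinase inhibitor p21, had 362, 426, 399.8 and 386 CPM. MDM2 and RB1 were at 93.9 ± 3.7 CPM (39.1% possibly shared) and 96.3 ± 4.9 CPM (26.1% possibly shared), and CDKN2C, another inhibitor of CDK4 and CDK6, at 130.3 ± 5.34 CPM. Of the proliferation genes 27 of 27 (17 unshared) were expressed, including MKI67 at 163 ± 6.87 CPM and TOP2A at 359.9 ± 14 CPM, and replicate 3 was the highest library for 17 of the 27, beside 26.7% of all expressed protein-coding genes.

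CDKN2A and its neighbours on chromosome 9 formed a gap. CDKN2A (chr9:21967139-21995324, hg38 as deposited) had 31, 23, 18 and 26 reads in replicates 1 to 4, CDKN2B had 1, 0, 0 and 0 reads, and MTAP, which encodes an enzyme of the methionine salvage pathway, had 57, 41, 35 and 26 reads. These are means of 0.529, 0.00555 and 0.859 CPM, and replicate 1 was the highest of the 4 for each. On one side the nearest expressed protein-coding gene was KLHL9 at 40.04 ± 2.17 CPM (100% possibly shared), and the next was FOCAD with 42.9, 45.2, 49.2 and 50.7 CPM. On the other side it was ELAVL2 at 3.5 ± 0.234 CPM, the RNA-binding gene of neurons. Between KLHL9 and ELAVL2, over 2352 kb, 10 protein-coding intervals held 388 reads in all 4 libraries together and 5 of them held none. Those 5 are interferon alpha genes, which are silent in most resting cells. The antisense RNA gene CDKN2B-AS1 of the same locus was at 0.0883 CPM. A lost locus and a silent locus cannot be told apart from RNA counts.

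**Figure D2:**
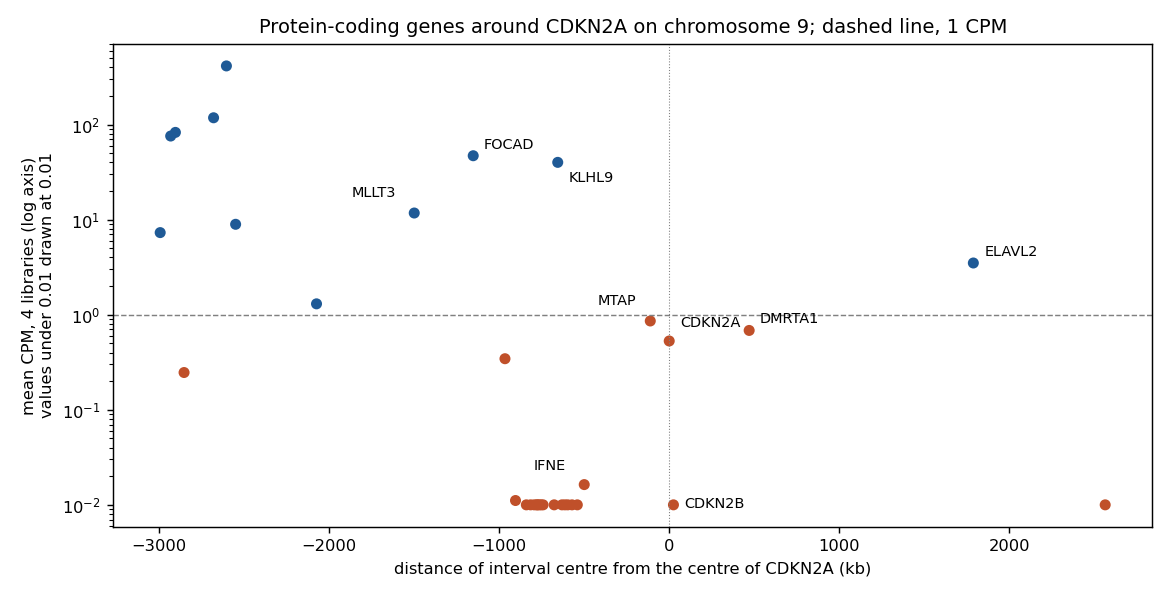
Mean CPM over the 4 scrambled libraries (log axis, values under 0.01 drawn at 0.01) of the 34 protein-coding genes within 3 Mb of CDKN2A, by distance from its centre in kb. MTAP, CDKN2A, CDKN2B and DMRTA1 lie under the dashed line at 1 CPM, between KLHL9 (40.04 CPM) and ELAVL2 (3.5 CPM).

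Of the telomere, chromatin and DNA repair genes, 25 of 28 were expressed (18 unshared), or 26 at 0.5 CPM and 27 at 10 reads in all libraries. The exceptions were TERT, the telomerase reverse transcriptase, the telomerase RNA gene TERC at 0.167 CPM, and MGMT, the repair enzyme that removes the lesion made by temozolomide. TERT had 1.13, 1.06, 0.60 and 0.663 CPM and MGMT had 0.466, 0.282, 0.29 and 0.214 CPM, with replicate 1 the highest for both. TERT thus lay on both sides of the 1 CPM threshold and above 0.5 CPM in every library. IDH1 was at 117 ± 4.2 CPM and the chromatin remodeller ATRX at 95.8 ± 3.72 CPM. In the drug response list 18 of 23 (10 unshared) were expressed. The efflux pump genes ABCB1 and ABCG2 were at 0.164 and 0.698 CPM, while GSTP1, a glutathione transferase, was at 205 ± 5.12 CPM, PARP1 at 349 ± 6.87 CPM and SLFN11, which is known to sensitise cells to DNA-damaging drugs, at 54.7 ± 0.83 CPM.

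Receptor tyrosine kinases were expressed for 33 of 55 (60%, 26 unshared), beside 68.4% of all protein-coding genes. AXL, a receptor for GAS6, led them with 587, 662, 622 and 604 CPM, or 11.7 CPM per kb, highest in replicate 2. EPHA2, an ephrin receptor, followed with 242, 259.7, 231 and 224 CPM and 7.53 CPM per kb. The next in order were CSF1R at 4.0 CPM per kb, EPHB4 at 3.95 CPM per kb, FGFR1 at 3.87 CPM per kb and PDGFRB at 3.59 CPM per kb, and their SDs of 0.255, 0.134, 0.0656 and 0.114 do not separate all of them: CSF1R overlaps each of the other 3 in single libraries, and FGFR1 overlaps EPHB4. EGFR, the receptor most often amplified in glioblastoma, had 182, 195, 184 and 179.5 CPM, or 0.959 CPM per kb of a long interval. Per kb of exon, EGFR stood at 14.8 CPM, below AXL at 120.1 and EPHA2 at 57.5. MET, the receptor for HGF, had 73.2, 74, 76.7 and 79.7 CPM.

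CSF1R is a receptor of macrophages and microglia, and its level stood out from the rest of the myeloid markers. It had 227, 246, 256 and 263 CPM, lowest in replicate 1, and up to 33.9% of the reads could be shared with the overlapping HMGXB3. Its interval ends next to that of PDGFRB on chromosome 5, which had 150.2, 151, 146 and 157 CPM. The other defining microglia markers TMEM119, TREM2, P2RY12 and CX3CR1 were at 0.0218, 0.0222, 0.146 and 0.022 CPM. PDGFRA, the proneural PDGF receptor, had 3.0, 2.76, 3.66 and 4.28 CPM. PDGFRB exceeded PDGFRA 60.1-fold per kb of exon, from 50.1 to 74.5-fold in single libraries. Near 0 stood the neurotrophin receptors NTRK2 and NTRK3 (0.138 and 0.0824 CPM), FGFR2 (0.159 CPM), ROR2 (0.345 CPM) and KDR (0.257 CPM). ERBB2 was at 123 ± 2.79 CPM (43.7% possibly shared) and ERBB3 at 0.744 CPM.

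**Figure D3:**
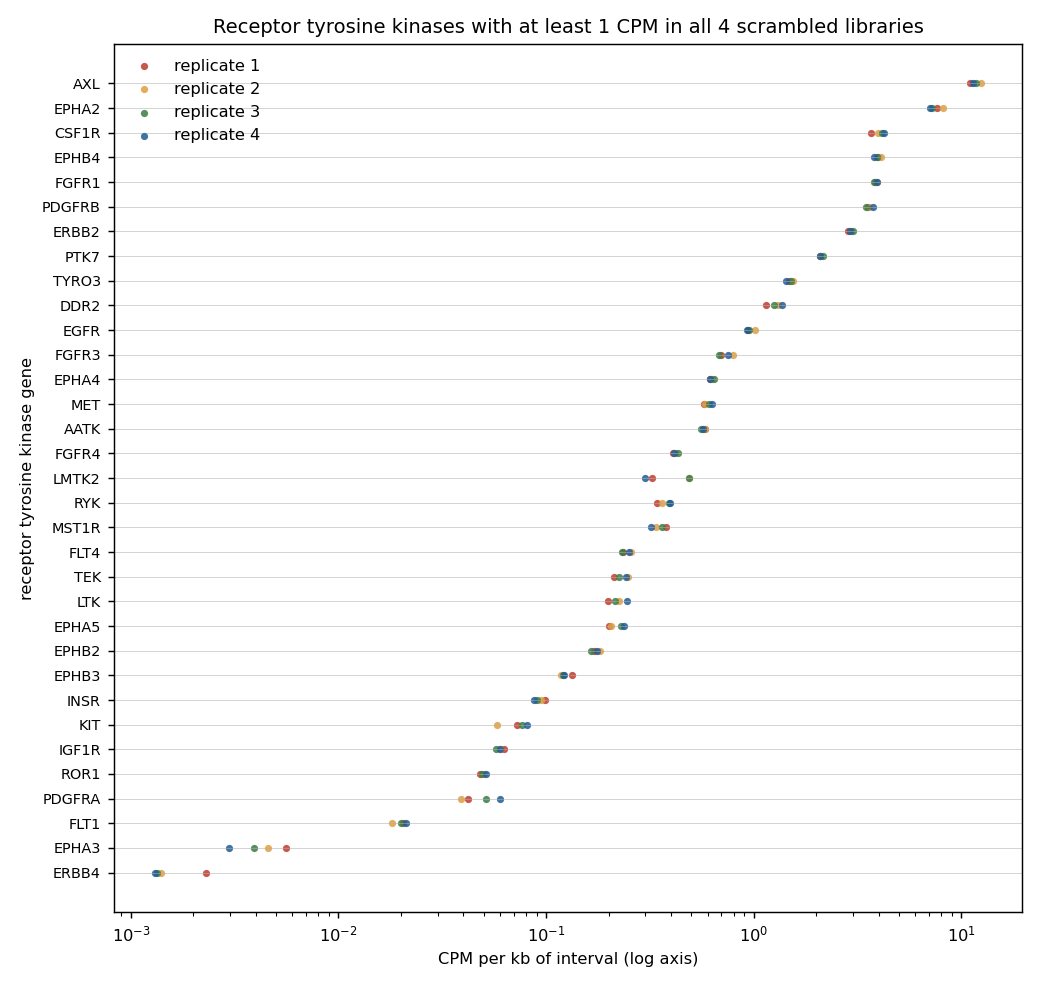
CPM per kb of interval (log axis) of the 33 receptor tyrosine kinases with at least 1 CPM in all 4 scrambled libraries, 1 coloured point per library. AXL (11.7) and EPHA2 (7.53) lead, and the libraries nearly coincide except for LMTK2, PDGFRA, EPHA3 and ERBB4.

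Ligands of these receptors were expressed for 35 of 53 (66.0%, 22 unshared), beside 68.4% of all protein-coding genes. The count was 22 when 0.1 CPM per kb of interval was also required. FGF2 was at 122 ± 8.57 CPM (87% possibly shared), CSF1, the ligand of CSF1R, at 85.2 ± 1.94 CPM, PDGFB at 61.2 ± 3.8 CPM, the AXL ligand GAS6 at 66.8 ± 2.84 CPM (100% possibly shared), and VEGFA at 37.6 ± 3.08 CPM. PROS1, another ligand of the AXL family, was at 85.7 ± 5.94 CPM. Of the EGFR ligands, HBEGF was at 9.42 ± 1.09 CPM and TGFA at 3.65 ± 0.593 CPM (30.4% possibly shared), whereas AREG and EPGN had 0 reads. HGF had 3 reads in all 4 libraries, so MET was expressed without its ligand above that count.

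Cytokine and death receptors were expressed for 36 of 42 (23 unshared). TGFBR2 was at 360.0 ± 11.5 CPM, the shared gp130 subunit IL6ST at 244 ± 6.2 CPM, OSMR at 201 ± 10.1 CPM and LIFR at 155 ± 10.9 CPM. IL7R, a lymphocyte cytokine receptor, was at 169 ± 12.1 CPM. The interferon receptor genes IFNAR1 and IFNAR2 were at 80.1 ± 3.6 CPM and 23.7 ± 0.25 CPM. Nuclear receptors were expressed for 27 of 47 (13 unshared): the liver X receptor NR1H2 was at 104 ± 4.75 CPM and the glucocorticoid receptor NR3C1 at 68.2 ± 2.48 CPM, while NR0B1 had 0 reads and the progesterone receptor PGR had 3. Glutamate and GABA receptors, the synaptic inputs of neurons, were expressed for 9 of 41 (6 unshared), with a median of 0.0012 CPM per kb. This count depends on the threshold: it was 19 at 10 reads in all libraries, 2 when 0.1 CPM per kb of interval was also required and 4 at 1 CPM per kb of exon. The AMPA receptor genes GRIA1, GRIA2, GRIA3 and GRIA4 were at 0.729, 0.163, 0.109 and 0.267 CPM.

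The matrix glycoproteins and proteoglycans summed to 16190 to 17242 CPM by library, of which SPARC alone held 10155 CPM on average, and the collagens summed to 11248 to 12276 CPM. Collagens were expressed for 26 of 43 (16 unshared), or 17 when 0.1 CPM per kb of interval was also required, matrix glycoproteins and proteoglycans for 45 of 60 (28 unshared) and laminins and integrins for 29 of 37 (19 unshared). The fibrillar chains COL1A2, COL3A1 and COL5A2 were at 2698 ± 135 CPM, 2312 ± 99.7 CPM and 2408 ± 107 CPM. COL3A1 and COL5A2 are adjacent and had counts within 10% of each other in all 4 libraries without overlapping, so their separate levels are uncertain. COL6A1 and COL6A2 were at 675 ± 34.3 CPM and 539.7 ± 10.7 CPM, and the basement membrane chains COL4A1 and COL4A2 at 554 ± 40.5 CPM and 830.4 ± 38.1 CPM (37.6% possibly shared). COL2A1, of cartilage, was at 0.126 CPM.

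Some chains that assemble together were far from equal. Type I collagen is built from COL1A1 and COL1A2, usually with more of the first. COL1A2 had 2514, 2684, 2786 and 2809 CPM and COL1A1 had 53.2, 57, 56.5 and 56.2 CPM, so the libraries for each chain lay far from those for the other. COL1A2 exceeded COL1A1 24.6-fold per kb of interval and 42.6-fold per kb of exon, from 41.5 to 44-fold in single libraries. Neither interval shares more than 4.43% of its reads with an overlapping gene. In collagen VI, COL6A1 had 689.9, 662, 635 and 714 CPM, and COL6A3 was at 11.8 ± 0.852 CPM. COL6A1 exceeded COL6A3 210.4-fold per kb of exon. Both pairs were chosen after their values were seen.

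**Figure D4:**
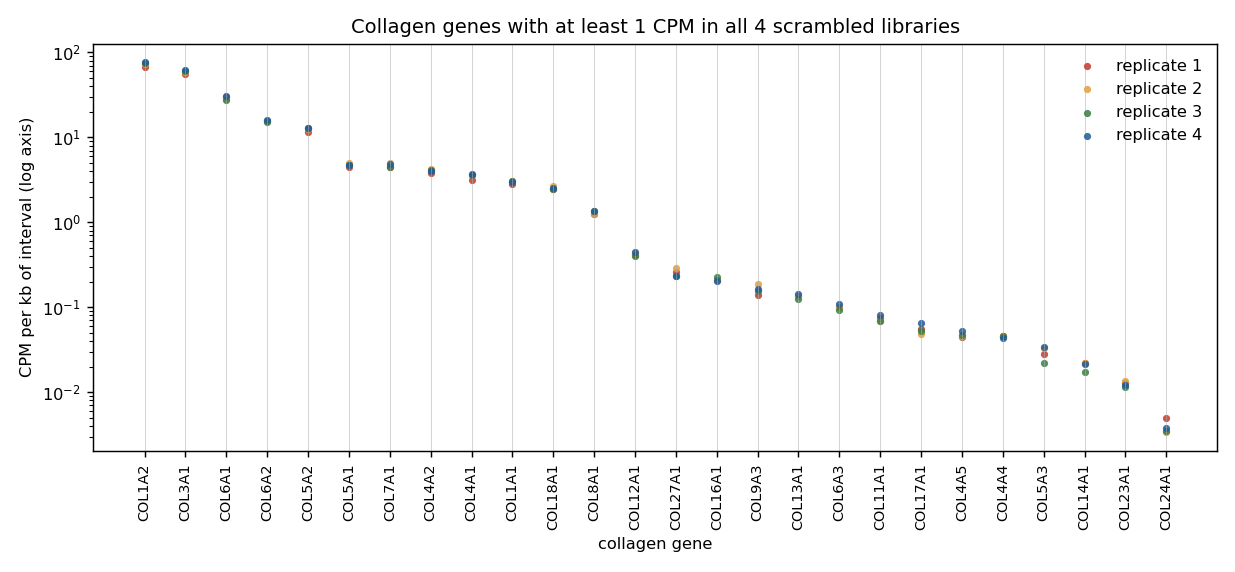
CPM per kb of interval (log axis) of the 26 collagen genes with at least 1 CPM in all 4 scrambled libraries, 1 coloured point per library. COL1A2 (73.1) and COL3A1 (59.3) lead, COL1A1 (2.98) lies far below them, and the points of a gene lie close together.

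Among the other matrix genes, LOXL2, which crosslinks collagen, was at 1148 ± 39.4 CPM (40.1% possibly shared), the heparan sulfate proteoglycans AGRN and GPC1 at 929 ± 54.9 CPM and 697 ± 21.4 CPM (21.2% possibly shared), fibrillin FBN1 at 843 ± 66.5 CPM and THBS2 at 359.6 ± 16.6 CPM (85.1% possibly shared). FN1, fibronectin, was at 98.3 ± 3.55 CPM. The brain matrix genes were divided: BCAN, brevican, had 293 CPM but all its reads could be shared with LOC105371453, TNC was at 6.98 ± 0.89 CPM, NCAN was at 0.0222 CPM and TNR at 0.133 CPM. ACAN had 2 reads in all. The integrin chain ITGA3, a laminin receptor subunit, was at 2137 ± 52.5 CPM, its partner ITGB1 at 1113 ± 58.9 CPM and LAMC1 at 624 ± 26 CPM. ITGA5 was at 649 ± 18.6 CPM (100% possibly shared).

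Matrix proteases and their inhibitors were expressed for 33 of 40 (21 unshared). TIMP2, an inhibitor of metalloproteases, was at 1264 ± 21.6 CPM, the cathepsins CTSB and CTSD at 1167 ± 17.2 CPM and 819.8 ± 18.7 CPM, MMP14 at 327 ± 6.9 CPM and MMP2 at 275 ± 8.31 CPM. PLAT, tissue plasminogen activator, had 817, 858, 785 and 794 CPM, with replicate 2 the highest. Its relative PLAU was at 10.5 ± 0.931 CPM (99.9% possibly shared). MMP9 was at 1.68 ± 0.536 CPM (100% possibly shared) and MMP12 had 0 reads.

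Of the intermediate filament genes 22 of 25 (12 unshared) were expressed, with VIM and then LMNA (1801 ± 26.1 CPM) at the top and KRT80 at 550.3 ± 32.8 CPM. Any keratin of the chromosome 12 series described at the end carries the limit given there, and both counts are upper limits. Among cadherins and adhesion molecules 20 of 32 (12 unshared) were expressed. CDH2, N-cadherin, had 449, 482, 475 and 458 CPM, against 0.243 CPM of CDH1. The tetraspanins CD63, CD81 and CD151 were at 614, 666 and 535 CPM. S100 genes were expressed for 11 of 19 (5 unshared): S100A6 had 615, 617, 721 and 686 CPM, higher in replicates 3 and 4, S100A4 was at 837 ± 64.9 CPM (30.3% possibly shared) and S100A10 at 745 ± 52.6 CPM (25.8% possibly shared), while S100B, S100A8 and S100A9 had at most 3 reads each in all libraries. Aquaporins and connexins were expressed for 7 of 22 (6 unshared), with AQP1 at 66.4 ± 2.62 CPM in place of AQP4, at least 7197-fold higher per kb of exon when 3 reads over the group are taken as the floor for AQP4.

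Glycolysis and lactate genes were expressed for 34 of 40 (23 unshared), and their summed level was 12401 to 13018 CPM. After PKM (4148, 4436, 4308 and 4370.5 CPM) came GAPDH at 1752 ± 44.4 CPM, ENO1 at 1269 ± 44 CPM and LDHA at 998 ± 55.7 CPM. Among hexokinases, which start glycolysis, HK1 had 293, 313, 297 and 308 CPM and HK2, the form often raised in glioblastoma tissue, had 5.75, 4.65, 4.47 and 5.45 CPM. HK1 exceeded HK2 57.4-fold per kb of exon, from 49 to 64.8-fold in single libraries, and up to 24.6% of HK1 reads could be shared with TACR2. LDHA exceeded LDHB 4.79-fold per kb of interval but 1.4-fold per kb of exon, so this order of size depends on the length used. The glucose transporter SLC2A1 was at 202 ± 9.35 CPM and the lactate exporter SLC16A3 at 359 ± 12.4 CPM (76.1% possibly shared).

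Lipid genes were expressed for 34 of 41 (22 unshared), led by a desaturase. SCD, stearoyl-CoA desaturase, had 2100.4, 2418, 2249 and 2093 CPM, highest in replicate 2, and its relative SCD5 was at 30.3 ± 0.958 CPM. FASN, fatty acid synthase, was at 847 ± 106 CPM, FADS2 at 1067 ± 58.3 CPM (52.9% possibly shared), ACLY at 760.3 ± 27.8 CPM and INSIG1 at 294 ± 24.2 CPM. Several fatty acid carriers were near 0: FABP4 had 0 reads, FABP5 was at 0.0855 CPM and FABP7 at 0.0811 CPM, and CD36 was at 0.124 CPM. The droplet coat gene PLIN3 was at 270.1 ± 9.89 CPM and PLIN2 at 0.247 CPM.

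Central carbon and amino acid lists stand beside the 68.4% of all protein-coding genes that were expressed, and the shares were not tested. The tricarboxylic acid list had 26 of 29 expressed (89.7%, 11 unshared) and the pentose phosphate and nucleotide list 23 of 25 (92%, 12 unshared). The amino acid list had 33 of 43 (76.7%, 20 unshared), not far above the share of all protein-coding genes. G6PC1 had 0 reads and PCK1 had 1, both enzymes of glucose output. The serine pathway genes PHGDH, PSAT1 and PSPH were at 58.7 ± 2.21 CPM, 68.5 ± 2.39 CPM and 26.8 ± 0.415 CPM. ASS1, the enzyme that makes arginine from citrulline with ASL, was at 0.212 CPM while ASL was at 37.8 ± 1.56 CPM (100% possibly shared). The cystine transporter SLC7A11 was at 34.6 ± 2.91 CPM (75.8% possibly shared).

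Among glioma surface targets 19 of 26 (15 unshared) were expressed. Beside AXL, L1CAM, CD44 and CSPG4, the immune ligand CD276 (B7-H3) was at 339 ± 11.8 CPM, IL13RA2 at 25.6 ± 2.35 CPM, GPNMB at 116 ± 4.66 CPM and CD70 at 21.9 ± 0.593 CPM, while FOLH1 and PTPRZ1 were at 0.0444 and 0.0774 CPM. NT5E, the ectoenzyme CD73 that makes adenosine, was at 504 ± 16.3 CPM and CD47 at 98.7 ± 2.71 CPM. CD274, PD-L1, was at 3.87 ± 0.379 CPM (100% possibly shared). Of the 35 genes of the antigen presentation and checkpoint list 15 had usable intervals, and 13 of these were expressed (6 unshared). Cancer-testis antigens were expressed for 5 of 25 (2 unshared), or for 8 at 0.5 CPM and 9 at 10 reads in all libraries. MAGEA6 had 53.6, 57.5, 60.4 and 52.4 CPM and MAGEA3 was at 31.5 ± 3.52 CPM. The 2 genes are near-identical copies, so the split of reads between them is uncertain. MAGEA4, MAGEC1, MAGEC2, CTAG1B and CTAG2 had 0 reads. Of the glioma long noncoding RNAs 15 of 18 (5 unshared) were expressed, with NORAD at 362 ± 8.81 CPM and HOTAIR at 13.5 ± 0.415 CPM (39.5% possibly shared), and MEG3 had 2 reads in all.

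The spread among the libraries was small for most lists and large for 2. The common biological coefficient of variation from edgeR, the part of the spread beyond counting, was 0.0701 over 22376 intervals that passed its filter on low counts. Of 9800 expressed protein-coding genes with at least 10 CPM, 45 had a CV above 25%. Replicate 1 was the highest library for 31 of these 45, and 21 of the 31 were in the interferon list. The others were highest in replicate 2 (2 genes), 3 (5 genes) or 4 (7 genes). One of those highest in replicate 3 was ASNS on chromosome 7, with a CV of 39.1% (100% possibly shared). Among intervals of any kind with at least 10 CPM on average, CHESS4436 on chromosome Y had the largest SD of log2 CPM. It had 50.6, 0.847, 0.124 and 0 CPM in replicates 1 to 4. Next came RP11-307C18.1 on chromosome 7, with 2.09, 18.6, 21.7 and 3.64 CPM (100% possibly shared). CHESS3801, nearby, had 2.22, 18.1, 22.1 and 3.38 CPM. MGC72080, which like ASNS overlaps CZ1P-ASNS, had 4.95, 21.6, 24.8 and 6.55 CPM. This pattern cannot be told apart from reads counted across neighbours, and these counts are not read as levels of single genes. LMTK2, also on chromosome 7 and highest in replicate 3 (CV 25.5%), had no overlapping gene, and its relation to these intervals was not tested. Metallothionein genes had a median CV of 34.7% and interferon genes of 31.7%, against 3.70% to 17.4% in the other 42 lists.

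Type I interferon response genes encode antiviral proteins that most cells keep low until interferon binds its receptor. All 36 were expressed in every library. Replicate 1 was the highest library for 35 of the 36, against 18.0% of expressed protein-coding genes highest in that library (26.2%, 26.7% and 29.0% in replicates 2, 3 and 4). The exception was IFI35, whose reads could all be shared with VAT1. Replicate 4 was the lowest library for 34 of the 36. The median ratio of replicate 1 to the mean of the other 3 was 1.72, from 1.02 to 3.37, and 14 genes were at least 2-fold above. Among the 23 unshared genes of the list it was the highest for 23, with a median ratio of 1.70. The other 3 libraries, each set against its 3 companions, gave medians of 0.834, 0.873 and 0.675. That replicate 1 differed in these genes was known when the list was chosen.

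Promoter sequences are shown for 3 such genes, all with a match to the motif below, and for the exception. The interferon-stimulated response element typically holds 2 GAAA units spaced by 2 bases, and only this spacing was searched. GAAANNGAAA was searched on both strands, overlapping matches included, in RefSeq promoter windows of GRCh38.p14 (250 bases before to 50 after the gene start). It was found in 20 of 29 interferon genes with a window (69.0%), in 2.71% of 10238 windows of expressed protein-coding genes and in 3.57% of all 35116 windows. The list was made of interferon response genes, so this difference is no independent support for it. Matches are in capitals and the rest in lower case, 5′ to 3′ along the gene.
IFI44L, chr1:78620198-78620497, plus strand: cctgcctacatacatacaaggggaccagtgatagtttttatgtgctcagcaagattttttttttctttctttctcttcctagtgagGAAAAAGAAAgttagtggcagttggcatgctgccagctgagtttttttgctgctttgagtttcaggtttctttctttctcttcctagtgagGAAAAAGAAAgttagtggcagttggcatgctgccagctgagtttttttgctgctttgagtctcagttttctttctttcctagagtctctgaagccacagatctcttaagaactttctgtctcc
IFI6, chr1:27672143-27672442, minus strand: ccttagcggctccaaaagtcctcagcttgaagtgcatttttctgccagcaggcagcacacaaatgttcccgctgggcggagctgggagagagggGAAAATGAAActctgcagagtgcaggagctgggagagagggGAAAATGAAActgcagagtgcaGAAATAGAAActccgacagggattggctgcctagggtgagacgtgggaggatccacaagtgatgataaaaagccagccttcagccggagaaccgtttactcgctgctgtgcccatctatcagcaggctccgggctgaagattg
IFIT1, chr10:89392373-89392672, plus strand: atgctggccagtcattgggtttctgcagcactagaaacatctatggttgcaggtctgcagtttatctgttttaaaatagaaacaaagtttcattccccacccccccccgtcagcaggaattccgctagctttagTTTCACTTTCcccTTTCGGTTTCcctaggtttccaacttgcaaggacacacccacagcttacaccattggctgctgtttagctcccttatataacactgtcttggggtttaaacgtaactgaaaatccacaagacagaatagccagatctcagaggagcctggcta
IFI35, chr17:43006534-43006833, plus strand: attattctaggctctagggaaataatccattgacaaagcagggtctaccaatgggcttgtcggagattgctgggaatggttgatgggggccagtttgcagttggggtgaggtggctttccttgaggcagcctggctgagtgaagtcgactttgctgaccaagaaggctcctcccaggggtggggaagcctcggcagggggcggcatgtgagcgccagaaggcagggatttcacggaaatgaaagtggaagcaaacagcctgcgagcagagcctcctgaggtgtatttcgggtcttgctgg
IFI44L has 2 matches, which begin 164 and 73 bases before the gene start, IFI6 has 3 and IFIT1 has 2 on the opposite strand. IFI35 has no run of letters with this spacing in the window. Within the list the match did not mark the genes that differed most: replicate 1 stood at a median ratio of 1.64 over the 20 genes with a match and 1.91 over the 9 without. XAF1 and RSAD2, at ratios of 2.74 and 2.70, have no match. A match is a run of letters and no evidence of a bound site.

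By library, IFI44L had 24.9, 8.95, 8.13 and 5.07 CPM, so replicate 1 was 3.37 times the mean of the others. OAS2, an antiviral RNA sensor, had 113, 51, 46.9 and 29.7 CPM. IFIT1, which binds foreign RNA, had 110.1, 45.6, 46.2 and 37.6 CPM, all of whose reads could be shared with overlapping genes. In each of these 3 genes replicate 1 lay above the other libraries and replicate 4 was the lowest. IFI6 had 360.4, 185, 220.1 and 132 CPM, and ISG15, a ubiquitin-like modifier, had 87.9, 45.6, 56.1 and 35.8 CPM (60.9% possibly shared). IFI35 had 401, 404, 393 and 385 CPM, without a high library. The interferon genes themselves were at or near 0: IFNB1 had 2 reads in replicate 1 and 0 in the others, and IFNA1 and IFNA2 had 0 reads. Replicate 1 also held the reads in otherwise empty intervals described above, and their part in these values was not tested.

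**Figure D5:**
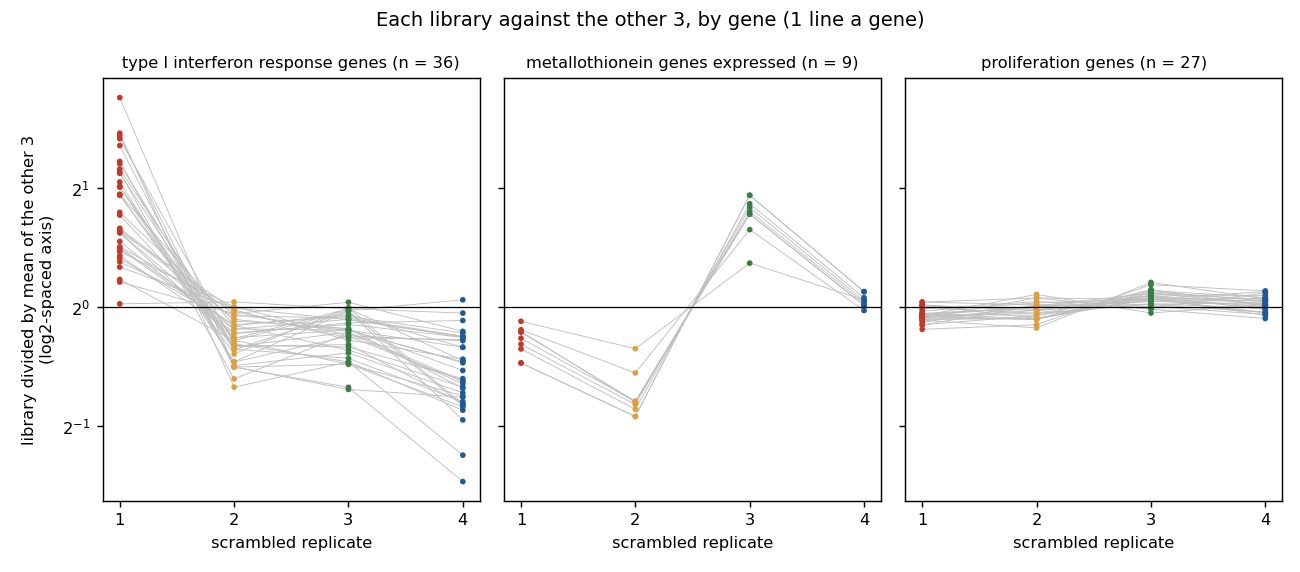
For each gene (1 line) of 3 lists, the level in each scrambled library divided by the mean of the other 3, on a log2-spaced axis. Interferon genes are high in replicate 1 (median 1.72) and low in replicate 4 (0.675), the 9 expressed metallothionein genes are high in replicate 3, and proliferation genes stay near 1.

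Metallothioneins bind zinc and copper and respond to metal supply. Of 11 genes 9 were expressed (6 unshared), MT3 and MT4 had 0 reads, and replicate 3 was the highest library for all 9. MT2A had 84.9, 75, 109 and 93.2 CPM and MT1E had 14.6, 10.4, 23.7 and 16.4 CPM, both lowest in replicate 2. The 9 values are not independent, and MT1E passed as unshared although it belongs to the stepwise series that follows. Counts fell step by step along the cluster on chromosome 16, from 657, 481, 1144 and 765 reads of MT1E to 205, 162, 442 and 293 reads of MT1G, and MT1H had the same 4 counts as MT1G although the intervals do not overlap. MT2A and MT1E had the most CPM of the 9.

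Type II keratin genes on chromosome 12 also spread widely, with most members highest in replicate 4. KRT6B had 18.5, 8.97, 13.3 and 47.1 CPM and KRT75 had 19.8, 9.28, 15 and 48.2 CPM. KRT84, KRT82, KRT75 and KRT6B, which lie in a row, had 2345, 2288, 2254 and 2200 reads in replicate 4 and 557, 484, 427 and 413 in replicate 2. All of them passed as unshared. Such a stepwise series over genes of different tissues (hair, tongue and skin keratins) cannot be told apart from reads counted across neighbours, and the counts are not read as levels of the single genes. KRT5, further along, was highest in replicate 1, at 17.6 CPM.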

How the data were processed

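RNA-seq of A172 cells was deposited by the authors as 1 merged table of whole-number counts per interval. Per the submitters' processing notes, Salmon and the build hg38 were used. The counter, its settings and whether strand was used were not given in the sources used here. Each of the 12 columns of libraries matched 1 sample, and the 4 of the scrambled group were used. From 48769 gene rows, 4366 were left out: 49 of ribosomal RNA and, for the rest, mainly intervals reaching over 100 kb beyond the RefSeq or GENCODE 29 gene of that name, older names and copies with the same counts. Of the 44403 kept, 10330 had no match in the reference tables and carry the name in the table alone. Counts were divided by TMM-scaled library sizes (edgeR 4.0.16, R 4.3.3) to give CPM, and by interval length or GENCODE exon length. Overlaps and levels were computed with Python 3.11.15 and pandas 2.3.3. There is 1 group, so no test between groups was made and all values are descriptions. The spread is edgeR's common dispersion from an intercept-only fit. On simulated counts for all 44403 intervals with a planted value of 0.1 the fit returned 0.0998.

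Gene lists (44 lists, 1296 genes, 1229 measured) and members were chosen with earlier results of these data known. Any list member may be named, beside the 30 protein-coding genes of highest CPM per kb with little overlap, the 20 genes of largest spread with at least 10 CPM, and genes overlapping a named gene. Pairs of related genes were chosen after their values were seen. Some genes of the lists are not reported here. Alternatives were DESeq2 1.42.0 size factors, plain totals, other thresholds, overlap filters and leaving out each library.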

Additional observations from a re-analysis of the deposited data

Results flagged for a closer look

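Of the 49 genes given by library and 44 summed lists, 4 had a library whose distance to the nearest other, as a share of the range, was above Dixon's 95% critical value for 4 values. Chance gives about 1 in 20, and 4.58% of expressed protein-coding genes (572 of 12493) passed it, 194 of them with replicate 1 apart. IFIT1 stood at 110 CPM in replicate 1 against 37.6 to 46.2 CPM in the others (0.882). The summed mesenchymal list was at 8148 CPM in replicate 1 against 8598 to 8682 CPM (0.842). Replicate 1 was also slightly lower in general: its median ratio to the mean of the other libraries was 0.978 over expressed protein-coding genes. For the expressed mesenchymal genes it was 0.986. The summed glutamate and GABA receptors were at 88.8 CPM in replicate 1 against 76.9 to 78.8 CPM (0.844), the same library that held reads in otherwise empty intervals. The summed antigen presentation and checkpoint list was at 1229.9 CPM in replicate 3 against 1172.5 to 1182 CPM (0.833).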

How the results depend on the processing

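The number of expressed genes (18042 intervals) stayed within 1.5 times under DESeq2 size factors, plain totals, 5 other thresholds on levels and the inclusion of all gene rows other than ribosomal RNA, and was 18123 to 18237 with each library left out. The number of list members expressed (836) did so too, and was 838 to 843. Restriction to intervals with no overlap lowered them to 4876 and 323, and restriction to unshared intervals, chosen after seeing the data, to 7453 and 503, since fewer intervals qualify. The biological coefficient of variation of 0.0701 became 0.0809 with no filter on low counts and 0.0580 for protein-coding genes, and 0.0642 (without replicate 1) to 0.0739 with a library left out. The interferon ratio of 1.72 was 1.61 (without replicate 4) to 1.78 with each of replicates 2 to 4 left out, and no value exists without replicate 1. All 49 mean levels shown by library moved by less than 1 SD under DESeq2 size factors and with each library left out. Of the 44 lists, counts of expressed members moved by over 1.5 times in 41 with no overlap allowed, in 31 with unshared intervals, in 5 when 0.1 CPM per kb was also required, in 4 at 10 reads, in 3 at 1 CPM per kb of exon and in 2 at 0.5 CPM, and in 0 under DESeq2 size factors, plain totals, 1 CPM on average or with a library left out. No paired analysis was possible because there is 1 group and no result comes from a test. Depth limits the low levels: the median CV of protein-coding genes was 3.38% from 1000 CPM up, 10.4% at 1 to 10 CPM, 36.8% at 0.1 to 1 CPM and 128% below that.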
